A study of Mus musculus with 6 samples.

Results

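The 8 transcription factors described here mark the ventral and inhibitory interneuron classes of the embryonic spinal cord: Evx1, En1, Gata2, Gata3, Tal1, Sim1, Pax2 and Pax8. They were chosen by name, and every probe whose RefSeq accession belonged to one of them was taken. This gave 10 probes for 8 of the 19897 genes matched to a probe, with 1 probe for each gene except Pax2, which had 3. Each of the 8 reached the required 2 arrays above background and so was among the 14917 genes tested.

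The arrays measured RNA of mouse spinal cord cells at E12.5, from embryos carrying Hb9::GFP, a reporter in which the promoter of the motor neuron gene Hb9 (Mnx1) drives green fluorescent protein. Cells were sorted by FACS into GFP-on cells, labelled motor neurons, and GFP-off cells, labelled non-motor neurons. There were 2 GFP-on arrays labelled mir-17~92 -/-, 2 GFP-on arrays labelled WT, 1 GFP-off array labelled mir-17~92 -/- and 1 GFP-off array labelled WT. These are called KO-labelled and WT-labelled below. The cluster mir-17~92 is a group of microRNAs made from 1 transcript. The labels do not say whether replicates came from separate embryos or from pools, so p-values measure the spread between these arrays, which may be technical.

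Facts of the whole set bear on every value below. Mir17hg, the host transcript of the cluster, had log2 levels of 4.54 and 4.78 on the KO-labelled GFP-on arrays, against -2.38 and 2.73 on the WT-labelled GFP-on arrays, the first of these below background, and of 4.62 on the KO-labelled against -1.23 on the WT-labelled GFP-off array. It was thus higher on the KO-labelled arrays; where its probe lies relative to the deleted part is not given in the sources used here, so the genotypes are named only as labelled. Of 10 measured motor neuron identity genes, 5 were higher in GFP-on cells and none was lower, where 1.54% of all genes tested rose. These 5 were the homeodomain factors Lhx3 and Lhx4, the acetylcholine genes Chat and Slc18a3, and the neurofilament gene Nefl. Between genotype labels in GFP-on cells 4 of the 10 rose in the KO-labelled arrays, as did 15.8% of all genes tested. These 4 were the homeodomain factors Isl1 and Isl2, the choline transporter gene Slc5a7 and the intermediate filament gene Prph. The summed level of the 10 was 101 to 117 on the KO-labelled and 45.1 to 48.2 on the WT-labelled GFP-on arrays, against 15.1 on the KO-labelled and 12.3 on the WT-labelled GFP-off array. Within the WT-labelled arrays the difference between fractions was positive for 9 of the 10, and 3 passed as higher, where 1.49% of all genes tested did. These 3 were Lhx4 (3.89), Chat (3.39) and Slc18a3 (3.22), while the lowest values were -0.0066 for Isl1 and 0.11 for Prph. Arrays differed in brightness: the 75th percentile of signal was 59.9 and 506 intensity units on the KO-labelled GFP-on arrays, 48.5 and 64.5 on the WT-labelled GFP-on arrays, 549.9 on the KO-labelled and 340.5 on the WT-labelled GFP-off array. The second WT-labelled GFP-on array stood apart from the arrays outside its group: its correlation across genes with any of them was 0.798 or lower. With the first WT-labelled GFP-on array it correlated at 0.926. The other 4 arrays, which leave out both WT-labelled GFP-on arrays, correlated at 0.909 or higher with each other.

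Spinal interneurons arise in ordered domains along the dorsal to ventral axis of the neural tube, and each class is marked by a set of transcription factors. Evx1 marks V0 neurons, whose axons cross the midline; En1 marks V1 neurons, which inhibit motor neurons on their own side; Gata2, Gata3 and Tal1 specify the inhibitory V2b neurons; and Sim1 marks the excitatory V3 neurons. Pax2 and Pax8 are paired-box factors of inhibitory interneurons in several of these classes. Several of the 8 have other known roles: Gata2 and Tal1 in blood progenitors and endothelium, Gata3 in sympathetic neurons, Pax2 and Pax8 in the kidney, and Sim1 in the hypothalamus.

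Of the 8 genes, Evx1 and Pax8 were higher in GFP-on cells, and the 250 bases before the annotated start of each are shown so that the 2 promoters can be compared. The sequences are from RefSeq, build GRCm38.p6, written 5′ to 3′ in the gene's direction. The Evx1 window is chr6:52313248-52313497 on the plus strand, and the Pax8 window is chr2:24475600-24475849 on the minus strand. Capitals mark matches to the E-box letters CANNTG in Evx1 and to the GATA core letters GATAA in Pax8.
Evx1: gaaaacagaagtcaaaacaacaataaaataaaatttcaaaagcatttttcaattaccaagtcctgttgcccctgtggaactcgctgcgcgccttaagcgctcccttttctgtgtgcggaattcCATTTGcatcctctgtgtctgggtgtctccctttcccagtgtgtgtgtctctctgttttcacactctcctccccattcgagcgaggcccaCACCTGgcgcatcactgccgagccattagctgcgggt
Pax8: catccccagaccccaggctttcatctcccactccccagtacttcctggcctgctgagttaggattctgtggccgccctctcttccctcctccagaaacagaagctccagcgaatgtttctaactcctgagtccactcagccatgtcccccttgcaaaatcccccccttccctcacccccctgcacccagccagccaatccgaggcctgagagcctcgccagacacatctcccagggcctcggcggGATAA
The Evx1 window held 2 E-box matches and no GATA core. The Pax8 window held 1 GATA core, which ends it, and no E-box. Over the 12 windows of the 8 genes, 5 held CANNTG, 2 held GATAA, 7 held the GC box GGGCGG, 1 held TATAAA and none held the homeodomain core TAATTA, counting both strands; the letters of 1 motif may overlap those of another. Among 32851 windows of the same length before all annotated starts, CANNTG was present in 66.2%, GATAA in 22.6%, GGGCGG in 32.7%, TATAAA in 12.4% and TAATTA in 4.84%. The median content of G and C was 60.6% over the 12 windows, against 52.4% over all windows, and the ratio of observed to expected CpG had a median of 0.741 against 0.373. These matches describe the letters of the windows only.

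Levels are given as log2 of the probe's processed signal minus the 75th percentile of its array, so that 0 is the 75th percentile; they compare arrays for 1 probe and not 1 gene with another. In these bulk samples, fewer cells expressing a gene and less of its RNA per cell cannot be told apart. The plot of levels by array shows all 8 genes, and the genes then follow by class.

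**Figure D1:**
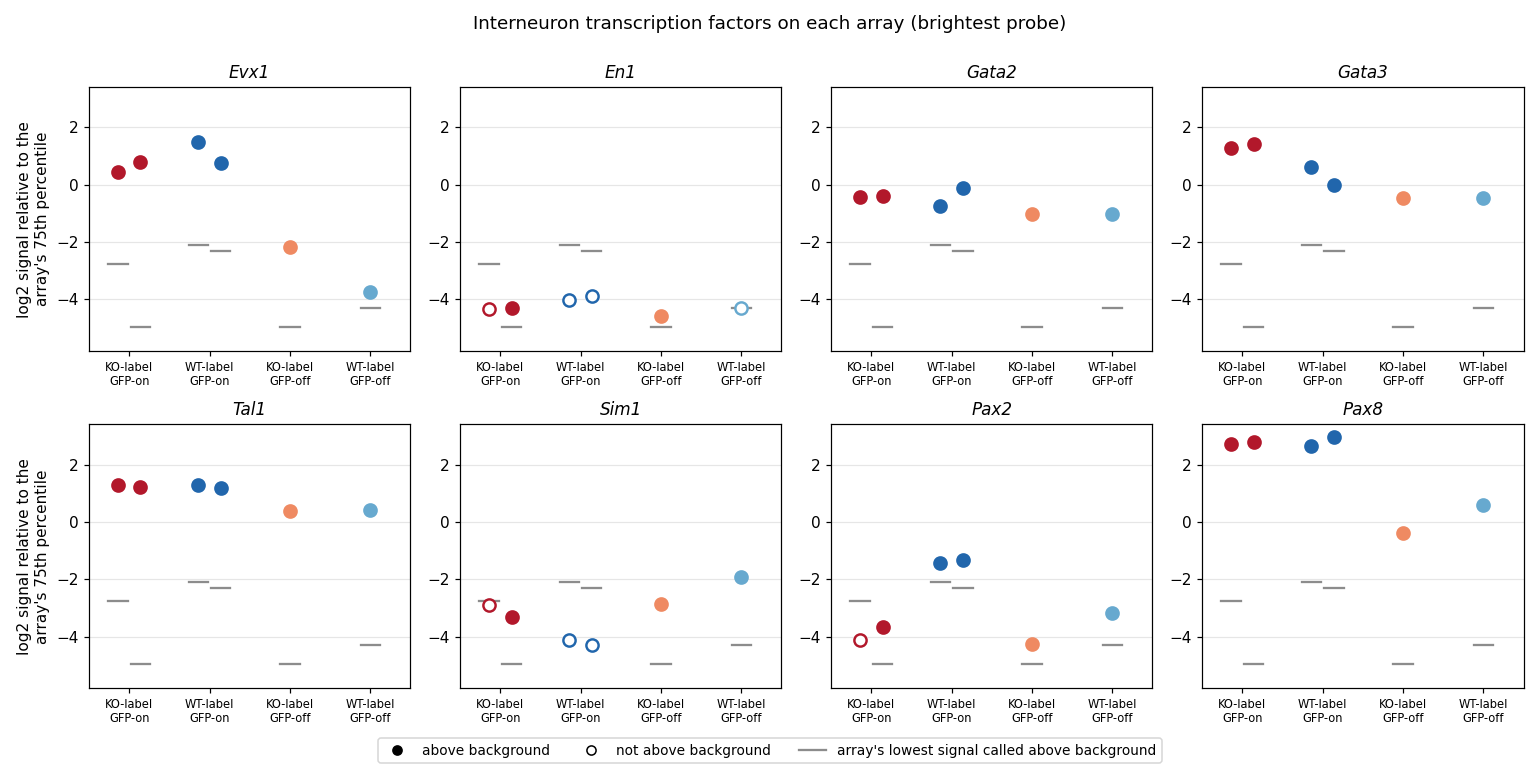
Log2 level of the brightest probe of each gene on each of the 6 arrays, relative to the array's 75th percentile, with KO-labelled and WT-labelled GFP-on arrays left of the GFP-off arrays. Grey marks give each array's lowest signal called above background, and open points are not above background. Evx1 and Pax8 lie above 0 on all 4 GFP-on arrays, while En1 is open on 4 of the 6 arrays.

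Evx1, the factor of V0 neurons, differed most between the sorted fractions among the 8 genes. Its level was 0.44 and 0.81 on the KO-labelled and 1.496 and 0.77 on the WT-labelled GFP-on arrays, against -2.19 on the KO-labelled and -3.75 on the WT-labelled GFP-off array. The 4 GFP-on arrays were all above both GFP-off arrays, and the probe was above background on every array. With the genotype label as a term, the level was 3.85 ± 0.55 log2 units higher in GFP-on cells (standard error, 4 arrays against 2), or 14.4-fold, with an adjusted p of 0.0194 in limma.

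Pax8, a factor of inhibitory interneurons, was likewise higher on all 4 GFP-on arrays than on both GFP-off arrays. It was at 2.72 and 2.77 on the KO-labelled and 2.65 and 2.95 on the WT-labelled GFP-on arrays, against -0.39 on the KO-labelled and 0.60 on the WT-labelled GFP-off array. The 4 GFP-on values lay within a narrow band, well above both GFP-off values. The difference was 2.67 ± 0.42 log2 units, or 6.35-fold, with a limma adjusted p of 0.0236.

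Thus 2 of the 8 genes rose in GFP-on cells and none fell, where 1.54% of all genes tested rose, 0.751% fell and 2.29% passed in either direction. The median difference over the 8 genes was 0.96 log2 units, against -0.21 over all genes tested. Neither call held in every setting: with quantile normalization, with no filter on dim probes, without the genotype term, without the first WT-labelled GFP-on array and without the WT-labelled GFP-off array, 0 of the 8 passed, while both kept their sign. Without the first KO-labelled GFP-on array, without the KO-labelled GFP-off array, or with slide row as a block, Evx1 passed and Pax8 did not.

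The 3 factors of V2b neurons were all above background on every array and lay higher on each GFP-on array than on either GFP-off array, yet none passed the test. Gata3 was at 1.27 and 1.42 on the KO-labelled and 0.61 and 0.0011 on the WT-labelled GFP-on arrays, against -0.45 on both GFP-off arrays. Its difference was 1.28 ± 0.45 log2 units with an adjusted p of 0.152 in limma. Leaving out both WT-labelled GFP-on arrays, a choice made after the data were seen, gave Gata3 a difference of 1.80 log2 units. That value rests on the KO-labelled arrays only, 2 GFP-on against 1 GFP-off. Tal1, a basic helix-loop-helix partner of the GATA factors, stood at 1.30 and 1.21 on the KO-labelled and 1.29 and 1.17 on the WT-labelled GFP-on arrays, against 0.37 on the KO-labelled and 0.41 on the WT-labelled GFP-off array. The Tal1 values fell into 2 tight groups by fraction, with a difference of 0.85 ± 0.39 and an adjusted p of 0.24. Gata2, which acts upstream of Gata3 in these neurons, was at -0.41 and -0.38 on the KO-labelled and -0.75 and -0.12 on the WT-labelled GFP-on arrays, against -1.002 on the KO-labelled and -1.02 on the WT-labelled GFP-off array. Its difference of 0.59 ± 0.41 had an adjusted p of 0.416, and the 95% interval of -0.34 to 1.52 spans 0.

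Counting arrays that do not overlap, Evx1, Gata2, Gata3, Tal1 and Pax8 were higher on every GFP-on array, as were 10.9% of all genes tested. Sim1 read lower on every GFP-on array, as did 16.8% of all genes tested, but 3 of its 4 GFP-on readings were below background, so that order was not a measured one. En1 and Pax2 overlapped.

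Sim1, the V3 factor, was near background. It was at -2.89 and -3.33 on the KO-labelled and -4.12 and -4.29 on the WT-labelled GFP-on arrays, against -2.88 on the KO-labelled and -1.94 on the WT-labelled GFP-off array. Only the second KO-labelled GFP-on array and both GFP-off arrays were above background for it, and the difference of -1.25 ± 0.53 had an adjusted p of 0.213. With normexp background correction the sign turned, to 0.53. En1, the V1 factor, has a probe spotted 10 times on each array, and still was above background on 2 arrays only, the second KO-labelled GFP-on array and the KO-labelled GFP-off array. Its levels of -4.32 and -4.29 on the KO-labelled and -4.02 and -3.87 on the WT-labelled GFP-on arrays, against -4.57 on the KO-labelled and -4.31 on the WT-labelled GFP-off array, differed by 0.32 ± 0.39 with an adjusted p of 0.654. On the dim arrays the lowest signal called above background was at -2.76 on the first KO-labelled and at -2.10 and -2.30 on the WT-labelled GFP-on arrays. En1 levels such as those on the bright arrays lie under these limits, as does the Sim1 level of the second KO-labelled GFP-on array and of the KO-labelled GFP-off array, so such levels could not be seen there. The Sim1 level of the WT-labelled GFP-off array lies above them.

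Pax2, the other paired-box factor of inhibitory interneurons, was at -4.11 and -3.66 on the KO-labelled and -1.45 and -1.33 on the WT-labelled GFP-on arrays, against -4.25 on the KO-labelled and -3.18 on the WT-labelled GFP-off array, by its brightest probe. The WT-labelled GFP-on arrays were high and the other 4 low, the first of them below background. Between fractions the difference was 1.08 ± 0.47 with an adjusted p of 0.222.

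**Figure D2:**
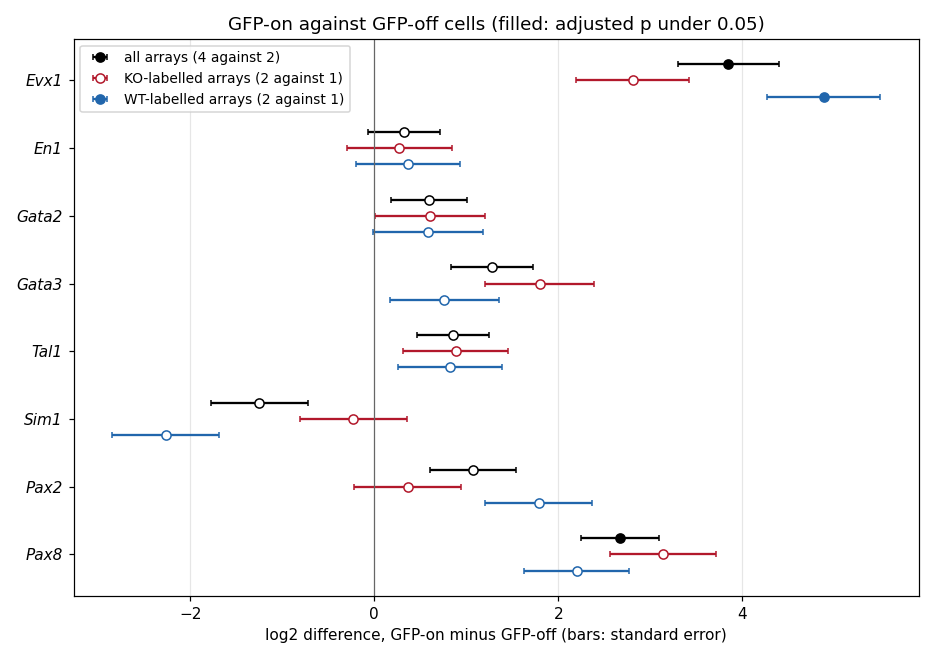
Log2 difference between GFP-on and GFP-off cells for each of the 8 genes, over all arrays (4 against 2) and within each genotype label (2 against 1), with standard errors from limma. Filled points have an adjusted p under 0.05: Evx1 (3.85) and Pax8 (2.67) over all arrays, and Evx1 (4.88) within the WT-labelled arrays.

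The difference between fractions was also taken within each genotype label, 2 GFP-on arrays against 1 GFP-off array. Among the WT-labelled arrays, which all lay in slide row 2, Evx1 rose by 4.88 ± 0.61 log2 units in GFP-on cells with a limma adjusted p of 0.018. The values for Pax8 (2.20, adjusted p 0.0566) and for Pax2 (1.79, adjusted p 0.0947) did not pass. Sim1 differed by -2.27 with an adjusted p of 0.0547, and was at least 1.2-fold lower in the WT-labelled GFP-on arrays, both of which were below background. So 1 of the 8 passed, with 1.49% of all genes tested passing as higher, 4.36% as lower and 5.85% in either direction. Fitting slide row as a block gave these same values, since row 1 held only the KO-labelled GFP-on arrays. With median scaling 2 of the 8 passed here, where 349 of all genes tested rose and 1771 fell. With probes above background on all 6 arrays 2 passed, where 348 rose and 480 fell.

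Among the KO-labelled arrays, Pax8 differed by 3.14 ± 0.57 (adjusted p 0.128), Evx1 by 2.81 ± 0.61 (adjusted p 0.141) and Gata3 by 1.80 ± 0.59 (adjusted p 0.324). None of the 8 and 0% of the genes tested passed in limma, while 1416 genes had an unadjusted p under 0.05. Leaving out either WT-labelled GFP-on array, which here enter only through the shared spread, left these differences unchanged. With median scaling 2 of the 8 passed, where 148 of all genes tested rose and 37 fell. With normexp correction 1 passed, where 54 rose and 14 fell. With probes above background on all 6 arrays 2 passed, where 121 rose and 14 fell. The second KO-labelled GFP-on array and the KO-labelled GFP-off array were both bright (75th percentiles of 506 and 549.9), and between that pair Pax8 was 3.17, Evx1 2.99, Gata3 1.88 and Tal1 0.84 log2 units higher on the GFP-on array. Over all KO-labelled arrays the values were 3.14 for Pax8 and 2.81 for Evx1. The pair is 1 array against 1, and the part of brightness in these values was not tested. The difference between fractions was compared between genotype labels by the interaction. It passed for none of the 8, and for 0% of all genes tested in limma, where 1431 had an unadjusted p under 0.05; the largest for the 8 were -2.07 ± 0.87 for Evx1 (adjusted p 0.501) and 2.04 ± 0.82 for Sim1 (adjusted p 0.481).

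Between genotype labels in GFP-on cells, Pax2 was the 1 gene of the 8 that passed. Its brightest probe fell by 2.49 ± 0.47 log2 units in the KO-labelled arrays, with a limma adjusted p of 0.0115, 2 arrays against 2. Of the KO-labelled arrays 1 was above background, and with the other set at its lowest signal called above background the probe was 3.53-fold lower. Of all genes tested, 7.24% passed as lower, 15.8% as higher and 23% in either direction. The median difference over the 8 genes was -0.02, against 0.34 over all genes tested. In GFP-on cells the genotype label and the slide row cannot be told apart, since the KO-labelled arrays were in row 1 and the WT-labelled arrays in row 2.

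The summed level of the motor neuron identity genes given above was higher on the KO-labelled arrays of this comparison; its part in the Pax2 values was not tested. The other Pax2 probes were lower on the KO-labelled GFP-on arrays as a mean but did not separate the arrays so clearly. The second probe read -4.65 and -3.53 on the KO-labelled GFP-on arrays, against -3.17 and -0.78 on the WT-labelled ones, and -4.44 on the KO-labelled against -3.70 on the WT-labelled GFP-off array. The third read -4.67 and -4.28 on the KO-labelled GFP-on arrays, against -4.13 and -0.46 on the WT-labelled ones, and -5.50 on the KO-labelled against -3.67 on the WT-labelled GFP-off array. On both, the first WT-labelled array was below background and the second WT-labelled array was the high one. Tested singly with adjustment over all probes, their differences were -2.11 ± 0.78 (adjusted p 0.0789) and -2.18 ± 0.995 (adjusted p 0.139). The first KO-labelled array was below background for all 3 probes. Without the first KO-labelled GFP-on array, with quantile normalization, with normexp background correction, with no filter, or in the additive model, the brightest probe no longer passed.

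**Figure D3:**
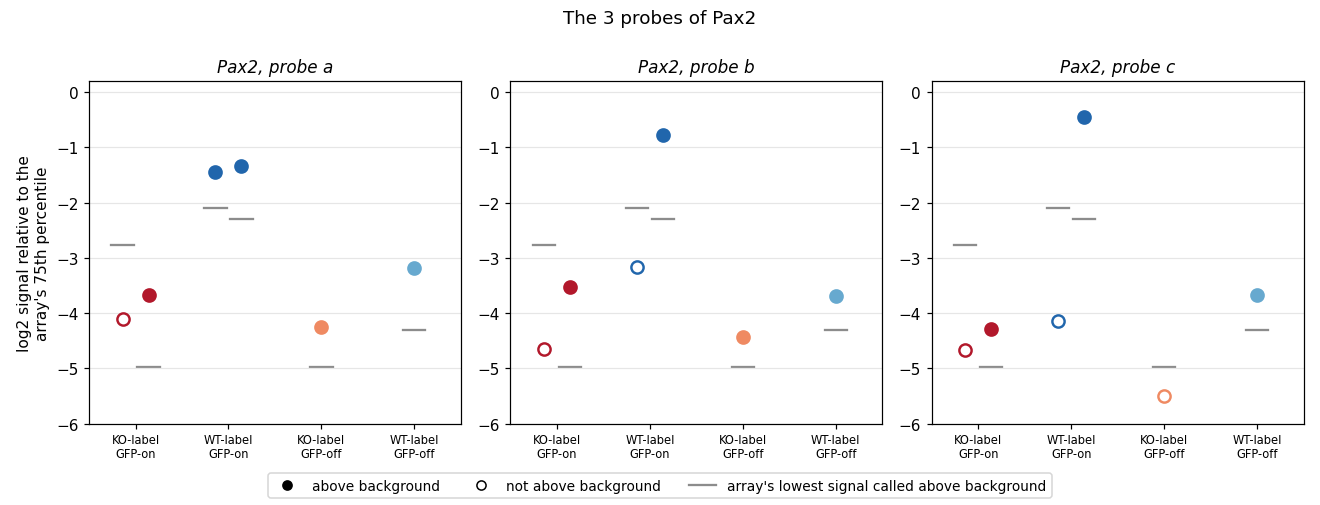
Log2 level of the 3 Pax2 probes on each of the 6 arrays, relative to the array's 75th percentile; open points are not above background. The second WT-labelled GFP-on array is highest for all 3 probes, while the first WT-labelled GFP-on array stands near it (-1.45 against -1.33) for the brightest probe only.

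The other 7 genes did not pass between genotype labels in GFP-on cells. Gata3 was 1.04 ± 0.49 log2 units higher on the KO-labelled arrays (adjusted p 0.15) and passed with median scaling and without the first WT-labelled array. Sim1 differed by 1.097 ± 0.48 (adjusted p 0.125), with both WT-labelled arrays below background and no fold to give; it too passed with median scaling and also with quantile normalization, and its sign turned with normexp correction. Evx1 differed by -0.51, with a 95% interval of -1.65 to 0.63, and En1 by -0.36. Gata2 at 0.04 (-1.06 to 1.15), Tal1 at 0.02 (-1.03 to 1.08) and Pax8 at -0.05 (-1.12 to 1.01) lay close to 0, with intervals that include differences of about 1 log2 unit either way. The signs of Evx1, En1, Gata2, Tal1 and Pax8 each turned under at least 1 other scaling or background correction or model. Gata3 and Sim1 were higher on both KO-labelled than on both WT-labelled arrays, as were 41.3% of all genes tested, and En1 and Pax2 were lower, as were 26%. Sim1 and En1 were each below background on 3 of these 4 arrays, so for both genes the order was not a measured one.

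**Figure D4:**
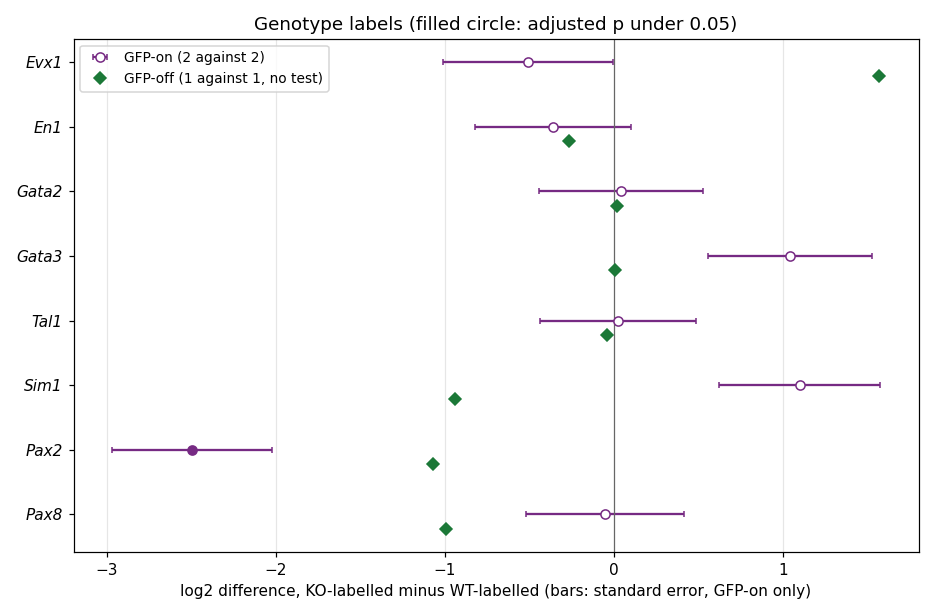
Log2 difference between KO-labelled and WT-labelled arrays for each of the 8 genes in GFP-on cells (circles, 2 against 2, bars give the standard error) and in GFP-off cells (diamonds, 1 against 1, no test). Pax2 (-2.49) is the 1 filled circle, with an adjusted p under 0.05; Evx1 lies at -0.51 in GFP-on cells and at 1.57 in GFP-off cells.

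In GFP-off cells 1 KO-labelled array was set against 1 WT-labelled array, both in slide row 2, so the values have no replicate check. Evx1 was 2.96-fold higher on the KO-labelled array, and Pax2 differed by -1.07 log2 units on its brightest probe. These were the 2 genes past 2-fold, a size that 3.22% of all genes tested passed as higher and 3.32% as lower. The other Pax2 probes were lower too, the third at least 2.45-fold lower since it was below background on the KO-labelled array. Pax8 was just under that size at -0.99, as was Sim1 at -0.94, and En1 was at -0.27 with the WT-labelled array below background. The V2b factors lay close on both arrays, with differences of 0.02 for Gata2, 0.0037 for Gata3 and -0.04 for Tal1.

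Other genes known from the same interneuron classes were counted in 7 lists, 32 genes of which 26 were tested. Between fractions, 2 of the 26 rose in GFP-on cells, where 1.54% of all genes tested rose. Among the 2 was Foxd3 of the V1 list, a forkhead factor also of neural crest, at 4.29 ± 0.40 log2 units (adjusted p 0.00868 in limma). None of the 26 fell, and their median difference was 0.97. In the V1 list Sp8 was at 1.76 and Foxp2 at 1.38, and neither passed. No gene of the V2a list passed, with Sox14 at least 4.42-fold higher in GFP-on cells (adjusted p 0.0801). In the V0 list Dbx1, a factor of the progenitors of these neurons, was at -2.10, opposite in sign to Evx1, and did not pass. In the V3 list Nkx2-2 was at 1.31 and Uncx at 1.17, and in the V2b list the cofactors of the LIM and GATA complexes Lmo4 and Ldb1 were at -0.02 and -0.74. No inhibitory factor of 7 tested passed, and Gbx1 at -2.10, Gbx2 at 1.65 and Prdm13 at -1.03 were among them. Gbx1 and Prdm13 were each above background on only 1 of the 4 GFP-on arrays. The 4 tested genes of inhibitory transmission, among them Gad1 and Gad2, which make GABA, and Slc32a1, which loads it into vesicles, were all positive, and Slc32a1 came nearest to the threshold at 1.77 (adjusted p 0.0622).

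**Figure D5:**
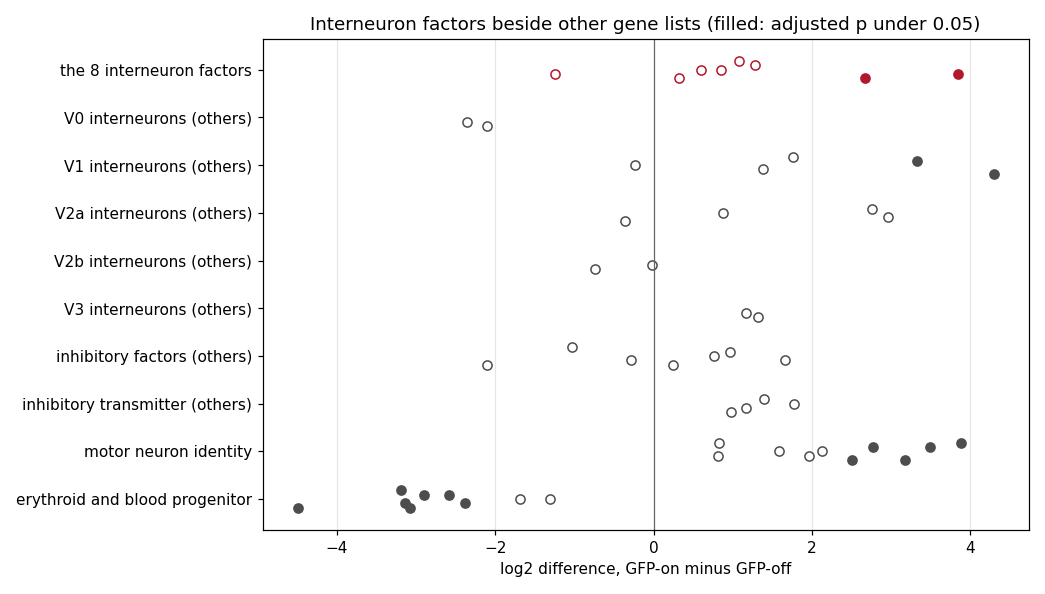
Log2 difference between GFP-on and GFP-off cells (4 arrays against 2) for every tested gene of the 8 factors and of the lists of other genes known from the same classes, and for markers of motor neurons and of red blood cells. Filled points have an adjusted p under 0.05: Evx1 and Pax8 of the 8 factors, 2 of the other interneuron genes, and 5 of 10 motor neuron genes on the positive side against 7 of 9 erythroid genes on the negative side; vertical offsets only separate points.

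Between genotype labels in GFP-on cells, 3 of the 26 rose and 1 fell, where 15.8% of all genes tested rose and 7.24% fell. Gad1 was 2.69 ± 0.54 log2 units higher in the KO-labelled arrays (adjusted p 0.0131 in limma). Sox14, a V2a factor, differed by -3.15 ± 0.56 (adjusted p 0.00976), with the first KO-labelled array below background. None of the V0, V1, V2b, V3 and inhibitory factor lists had a gene that passed.

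Markers of other cell types that use these factors moved with some of the comparisons, and their part in the values above was not tested. Of all genes tested, 1.54% rose and 0.751% fell between fractions. Between genotype labels in GFP-on cells 15.8% rose and 7.24% fell. Of 9 tested erythroid genes, 7 fell in GFP-on cells and none rose, the median being -2.90. The blood factor Gata1, partner of Tal1 in red cells, differed by -2.39 ± 0.50 (limma adjusted p 0.0471). Only 1 of its 4 GFP-on readings was above background, so the size of that difference was not fully measured. The globin gene Hbb-b2 differed by -4.50 ± 0.55 (limma adjusted p 0.0158). The summed erythroid level, in units of the array's 75th percentile, was 247 to 578 on the KO-labelled and 294 to 329 on the WT-labelled GFP-on arrays. It was 1390 on the KO-labelled and 1520 on the WT-labelled GFP-off array. Gata2 and Tal1 read lower on the GFP-off arrays without passing the test. None of 11 endothelial genes passed between fractions. Their summed level was 14.4 to 21.6 on the KO-labelled and 23.6 to 122 on the WT-labelled GFP-on arrays, against 20.7 on the KO-labelled and 30.6 on the WT-labelled GFP-off array. Between genotype labels in GFP-on cells, 2 endothelial genes rose, Cdh5 (at least 6.36-fold) and Cldn5 (2.45 log2 units). The 2 that fell were Erg (-2.31 log2 units) and Pecam1 (-1.496 log2 units). Cldn5, Erg and Pecam1 were each above background on 3 of the 4 GFP-on arrays. Of 7 kidney genes, Six2 (-2.71, adjusted p 0.0227) and Emx2 (at least 1.98-fold lower, adjusted p 0.0471) fell in GFP-on cells, and none passed between genotype labels. The summed kidney level was 6.41 to 8.42 on the KO-labelled and 3.02 to 4.39 on the WT-labelled GFP-on arrays. It was 20.9 on the KO-labelled and 11.1 on the WT-labelled GFP-off array.

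Of 6 sympathetic neuron genes, none passed between fractions. Between genotype labels in GFP-on cells 4 of the 6 rose in the KO-labelled arrays. Of all genes tested, 15.8% rose and 7.24% fell there. Among the 4 were Hand2 at 3.33, Dbh at 2.44 and Phox2a at 2.39 log2 units. The summed level of the 6 was 20.5 to 27.4 on the KO-labelled and 6.44 to 7.54 on the WT-labelled GFP-on arrays. It was 6.46 on the KO-labelled and 9.76 on the WT-labelled GFP-off array. Gata3, which sympathetic neurons also express, was higher on the same KO-labelled GFP-on arrays without passing. Of 6 somite and muscle genes 1 fell in GFP-on cells, Myod1 (-3.05, limma adjusted p 0.0471). Between genotype labels 2 of them rose (Myod1 and Myog) and 1 fell (Tbx6). Both WT-labelled GFP-on arrays were below background for Myod1, so the size of its differences was not fully measured. Of 9 spinal progenitor genes none passed between fractions and 3 rose between genotype labels (Fabp7, Top2a and Sox2).

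For the 5 genes above background on all 6 arrays, the 2 genes with the most similar pattern were taken by Pearson correlation over the 6 arrays, among 10133 genes. Since the arrays fall into GFP-on and GFP-off groups and share brightness, these values are a description. They were Ghrh (0.987) and Wdr17 (0.987) for Evx1, Lrp3 (0.986) and Neurod1 (0.972) for Gata2, and Kif5c (0.998) and Vxn (0.996) for Gata3. For Tal1 they were Rell2 (0.998) and Camk2b (0.998), and for Pax8 they were Adgrb1 (0.998) and Cdh22 (0.998). Among the 16 nearest tested protein-coding genes on either side of the 8, 2 rose and 1 fell in GFP-on cells. Of all genes tested, 1.54% rose and 0.751% fell. Cacna1b, a calcium channel gene beside Pax8, was at 3.62 and Grik2, a glutamate receptor gene beside Sim1, at 2.56, while Pdzk1ip1 beside Tal1 was at -3.30. Beside Evx1, Hoxa13 was at 1.94 (adjusted p 0.242) and Hibadh at -0.05, and neither passed.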

How the data were processed

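Cy3-labelled RNA of 6 samples was measured on Agilent mouse arrays with 1 colour, on 1 slide. Spots were read with Agilent Feature Extraction, version 10.5.1.1 per the file headers and 9.1 per the submitters' processing notes. The deposited scanner files hold each spot's processed signal, an intensity that was background-subtracted and not scaled between arrays, its median signal and background, and flags of other kinds (above background, saturated, irregular). No spot was saturated. The authors' deposited value table is in log2, and its scale and direction were found by comparison: it equals log2 processed signal minus the array's 75th percentile within 0.01, with no centring of genes.

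The same values were computed here from the unflagged spots, with the percentile over 55681 probes. Probes were named by RefSeq accession through a table of GRCm38.p6 (26300 matched, 29381 not); the headers name mm9. Probes above background in most of their spots on at least 2 arrays were kept, and the brightest per gene represented it. Tests were made in limma 3.58.1 (R 4.3.3), with Benjamini-Hochberg adjustment over 14917 genes and a threshold of 0.05. GFP-on and GFP-off cells were compared in an additive model with genotype label (3 residual degrees of freedom), and the other tests used 4 group means (2 residual degrees of freedom, all from GFP-on arrays; a single GFP-off array was assumed to vary like them). The tests were checked on simulated data. For a group with no array above background, the fold is a lower bound against the lowest signal called above background, or the probe's own signal where higher; the number of arrays limits precision.

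The 8 genes and the lists were chosen with earlier results of these data known. Of the lists, each gene past the threshold was named, with up to 3 more with the largest difference, apart from some that are counted but not reported here by name; other genes named were chosen after their values were seen. Replicate numbers were checked as pairs among GFP-on arrays: deviations of same-numbered arrays correlated at -0.276. This value alone cannot settle whether the numbers carry a pairing. Alternatives covered scaling, background, filter, probe choice, replicates and model. Some repeat another fit. Between fractions, slide row as a block gave the values of leaving out the KO-labelled GFP-off array. Fitting the GFP-on arrays alone gave the reported values between genotype labels. The deposited values equal those used here within 0.01. Tallies of alternatives that passed are therefore not counts of separate checks. The normexp alternative used the median signal, the raw signal at hand.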

Additional observations from a re-analysis of the deposited data

Results flagged for a closer look

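For Sim1 the difference between genotype labels had opposite signs in the 2 fractions: 1.097 in GFP-on cells and -0.94 in GFP-off cells (KO-labelled minus WT-labelled, log2). The interaction was 2.04 ± 0.82, with an unadjusted p of 0.0361 and a limma adjusted p of 0.481, so it did not pass. Sim1 was below background on the first KO-labelled and on both WT-labelled GFP-on arrays. Whether brightness has a part in these values was not tested.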

How the results depend on the processing

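Between fractions Evx1 kept its sign in all 18 alternatives (2.49 to 4.88) and passed in 13. Pax8 did so (2.05 to 3.14) and passed in 10. Some alternatives repeat a fit. The number of the 8 genes that passed there, 2 as reported, was 0 with quantile normalization, with no filter and with no genotype term, 1 with slide row as a block and 0 to 2 when 1 array was left out in turn. Without both WT-labelled GFP-on arrays (chosen after seeing the data) it was 3. Between genotype labels in GFP-on cells the number, 1 as reported, was 3 with median scaling and 0 with normexp correction, with no filter, with probes above background on all 6 arrays (which leaves out Pax2) and in the additive model; leaving out 1 array gave 0 to 2. With quantile normalization it was 1, Sim1 in place of Pax2. Pax2 kept its sign in all 15 alternatives and passed in 10, repeats counted. Within the KO-labelled arrays, 0 as reported, it was 2 with median scaling, 1 with normexp correction, 2 with probes above background on all 6 arrays and 0 to 3 with 1 array left out. Within the WT-labelled arrays, 1 as reported, it was 2 with median scaling, 0 with quantile normalization, 0 with no filter, 2 with probes above background on all 6 arrays and 1 to 4 with 1 array left out. In GFP-off cells the number past 2-fold, 2 as reported, was 1 with median scaling, 1 with quantile normalization and 0 with normexp correction. No interaction passed for the 8 under any alternative. Counts over all genes moved too, also within labels and with 1 array left out, but not always in step with the 8. Between genotype labels with quantile normalization, 1 of the 8 still passed while fewer of all genes did. Between fractions, 0 genes passed with quantile normalization and with no filter, and 8 rose and 0 fell with no genotype term. Between genotype labels in GFP-on cells, 4634 rose and 531 fell with median scaling. There 1509 rose and 189 fell with quantile normalization, and 1122 rose and 277 fell with normexp correction. With no filter and in the additive model 0 passed. The causes were not tested.

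With replicate number as a block over the GFP-on arrays, 1 of the 8 passed (Pax2), as in the fit without the block, and likewise with crossed numbers; with the replicate block over all 6 arrays, 0 passed within the KO-labelled and 1 within the WT-labelled arrays. No paired analysis was possible because the GFP-on and GFP-off groups share fewer than 2 replicate numbers; this concerns replicate numbers only. The descriptions give the first GFP-on array and the GFP-off array of each label a common tag of unstated meaning. On these 4 arrays the tag divides the arrays as the genotype label does. With the tag as a block, the fit was therefore the additive model on fewer arrays and not a separate check. There 2 of the 8 passed in limma, Evx1 at 3.94 (adjusted p 0.017) and Pax8 at 2.58 (adjusted p 0.0251). In that fit 556 of all genes tested were higher and 472 lower. Over all genes tested, 230 rose and 112 fell between fractions, with ranges of 0 to 659 and 0 to 650 over the alternatives; between genotype labels 2354 rose and 1080 fell, with ranges of 0 to 4820 and 0 to 2192. Of the genes called between genotype labels, 68.5% were higher, against 89.7% with median scaling, 88.9% with quantile normalization and 80.2% with normexp correction; between fractions the shares were 67.3% as reported, 53.7% with median scaling and 52.6% with normexp correction. The median of all genes between genotype labels was 0.34 as reported, 0.98 with median scaling, 0.44 with quantile normalization and 0.16 with normexp correction; between fractions it was -0.21, -0.34, -0.24 and -0.07 in the same order. Dim arrays limit En1, Sim1 and Pax2 most.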
